A study of Mus musculus with 6 samples.

Results

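The genes described here are 55 components of the Wnt pathway of the mouse, taken as a fixed list of symbols from the 46983 genes in the deposited count tables and grouped by role into ligands, secretion factors, receptors, secreted antagonists, the R-spondin branch, beta-catenin with its DNA-binding partners, and intracellular inhibitors and feedback targets. Each of the 55 symbols matched 1 Ensembl gene. The RNA came from embryonic fibroblasts of C57BL/6 mice, taken from embryos aged 14 days and grown to passage 16, with 3 sequencing libraries labelled SphK2 null and 3 labelled wild type. How the null allele was made is not given in the sources used here. SphK2 is sphingosine kinase 2, an enzyme that makes the lipid signal sphingosine-1-phosphate. The series title refers to the stroma of breast tumours, whereas the cells sequenced here came from embryos. Total counts in genes were 16804841 to 19148434 per null-labelled library and 15598566 to 23681718 per wild-type-labelled library.

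Wnt proteins are secreted, lipid-modified signals that bind Frizzled receptors on neighbouring cells. With the coreceptors Lrp5 and Lrp6 they stabilise beta-catenin, which then acts on genes through the TCF and LEF factors. With Ror2, Ryk or other partners they act on cell shape and movement without beta-catenin. Connective tissue cells both send and receive Wnt signals, and they release several of the proteins that hold the pathway back.

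Sphk2 itself was higher in the null-labelled libraries, at 49.4, 51.6 and 49.1 CPM, than in the wild-type-labelled libraries, at 28.1, 27.4 and 26.3 CPM, which goes against the label. CPM express the counts of a gene relative to the scaled total of its library. The counts sum all exons, whichever of them the allele may lack. Of the exonic bases of Sphk2, 20.8% are shared with Dbp or Rpl18 and add no reads to its count. All directions below are therefore between labels. All 15 fibroblast markers examined were lower in the null-labelled libraries, where they summed to 3897 to 3937 CPM, against 14350 to 14748 CPM in the wild-type-labelled libraries. Thy1 had 0 counts and Lum 3 counts over the null-labelled libraries, while Vim averaged 3211 CPM in null-labelled and 5622 CPM in wild-type-labelled libraries. Of 13 epithelial markers 4 were tested, 2 higher and 2 lower, and their sum was 386 to 413 CPM in null-labelled and 110 to 115 CPM in wild-type-labelled libraries, nearly all of it Krt8. Epcam and Cdh1 had at most 22 counts over either group, and Krt5, Krt14 and Cldn3 were at 0 in the wild-type-labelled libraries. Trophoblast markers (2 of 9 tested, 1 higher and 1 lower) summed to 20.03 to 20.8 CPM in null-labelled and 1.44 to 2.25 CPM in wild-type-labelled libraries, nearly all of the null-labelled sum being Hand1 at 20.05 CPM, with Cdx2 and Prl3d1 at 0 in all 6. Markers of extraembryonic endoderm (5 of 9 tested, 2 higher and 3 lower) summed to 62.5 to 64.1 CPM in null-labelled and 209 to 218 CPM in wild-type-labelled libraries, most of it Dab2, with Sox17, Ttr and Lama1 at 0 in all 6. Among them Sox7 (20.04 CPM in null-labelled, 3.65 CPM in wild-type-labelled libraries) and Gata4 (2.03 and 0.0656 CPM in the same order) were higher. Dab2 (39.3 and 207 CPM), Afp (1.73 and 2.41 CPM) and Gata6 (0.0171 and 0.842 CPM) were lower. Neural markers (7 of 8 tested, 3 higher and 3 lower) summed to 495 to 523 CPM in null-labelled and 496 to 506 CPM in wild-type-labelled libraries, most of it Nes. Within that sum Nes (434 CPM in null-labelled, 301 CPM in wild-type-labelled libraries) and Pax6 (56.7 and 5.97 CPM in the same order) were higher, while Sox2 (0.0933 and 112 CPM) and Ncam1 (1.08 and 64.1 CPM) were lower. Markers of endothelium, of macrophages and blood and of skeletal muscle stayed at or below 7.59 CPM in sum in every library. In bulk RNA, fewer cells of a type and less RNA per cell cannot be told apart, and the part of these marker differences in the Wnt results was not tested.

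Of the 55 genes, 41 had enough counts to be tested. At an adjusted p under 0.05, the null-labelled libraries had 10 of them at a higher and 30 at a lower level, and 1, Wnt10a, did not pass. In this comparison 79.2% of all 15199 genes tested passed the same threshold, 38.1% as higher and 41.1% as lower. The groups were free of overlap in all 41 genes, and in 79.9% of all genes tested. The median log2 fold change, null-labelled over wild-type-labelled, was -1.45 over the 41 genes, also with genes at 0 counts set to their bound, and -0.02 over all genes tested. By fitted fold changes, 17 of the 41 were lower by over 32-fold, against 6.15% of all genes tested, and the number was 16 with genes at 0 counts set to their bound. At most 3 counts over the null-labelled libraries were found for 13 of the 41, against 4.01% of all genes tested. A gene enters the test on counts in either group, so a gene with counts in 1 group alone can only be found to differ, and these shares describe the list without setting it apart from other genes. The list was also chosen with earlier results of these data known, so its shares and its median carry no test against all genes. Nothing in the labels ties the 3 libraries of a group to separate cultures or animals, so p-values measure only how these libraries vary, and that variation may be technical.

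**Figure D1:**
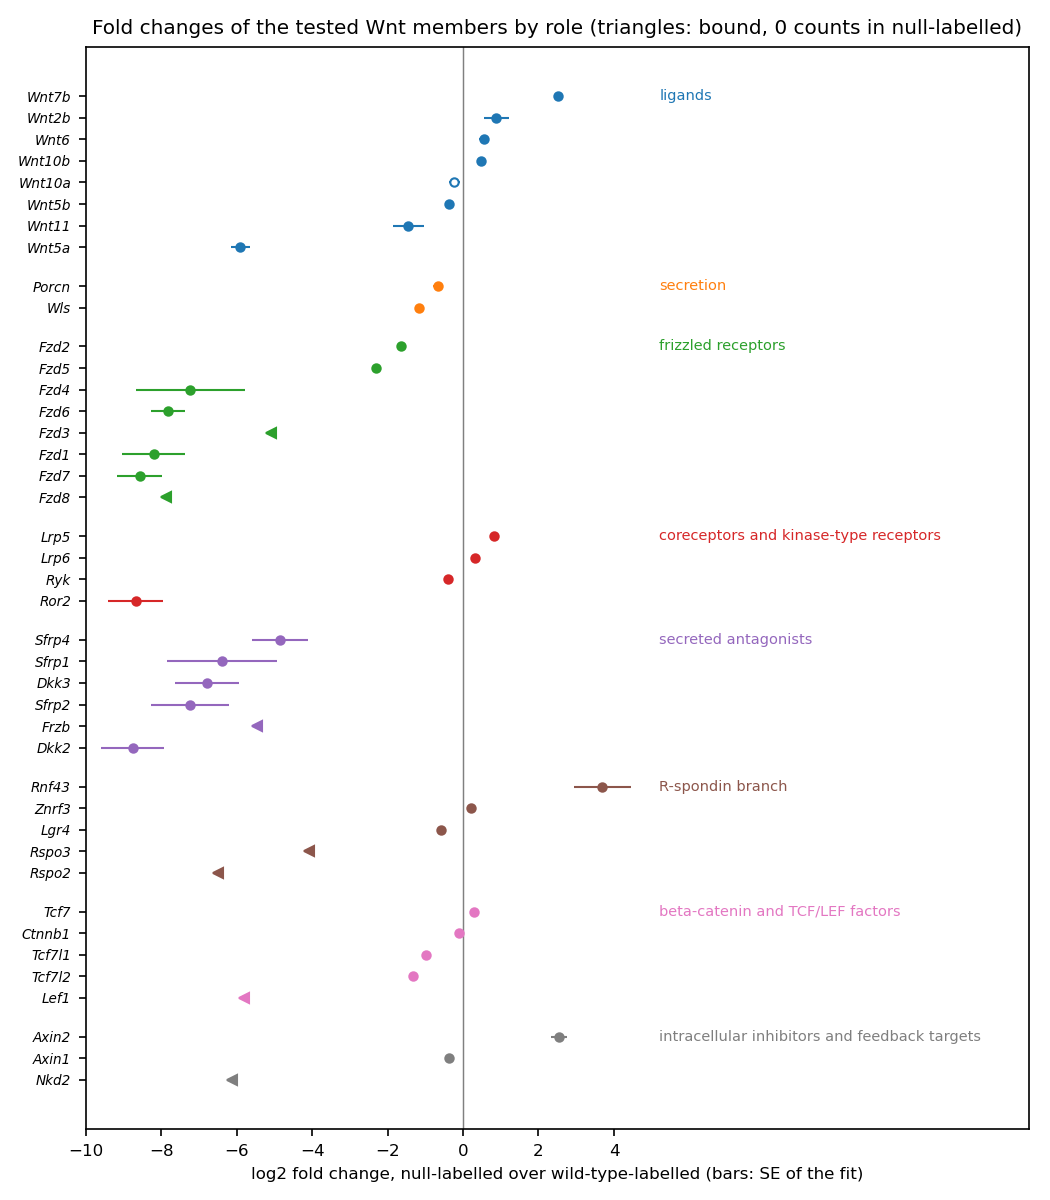
Log2 fold change of each tested Wnt gene, null-labelled over wild-type-labelled libraries, grouped by role, with the standard error of the edgeR fit as bars; triangles mark the bound for genes with 0 counts in the null-labelled libraries and the open circle is Wnt10a, which did not pass the test. Frizzled receptors and secreted antagonists all lie left of 0, while ligands lie on both sides, with Wnt7b at 2.53 and Wnt5a at -5.91.

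Frizzled receptors are the membrane proteins that bind Wnt. All 8 tested Frizzled genes were lower in the null-labelled libraries, against 41.1% of all genes tested. Apart from Fzd2 and Fzd5, they entered the test on their wild-type-labelled counts alone and could only be found lower. The comparison with that share is therefore a description only. The largest edgeR adjusted p of the 8 was 2.93e-30. Fzd7 stood at 0.0512, 0.175 and 0.107 CPM in null-labelled libraries, against 44.1, 44.3 and 42.6 CPM in wild-type-labelled libraries, a log2 fold change of -8.57 ± 0.59 (SE). Fzd6 stood at 0.256, 0.175 and 0.107 CPM in null-labelled libraries, against 42.6, 43.6 and 40.6 CPM in wild-type-labelled libraries, a log2 fold change of -7.82 ± 0.46 (SE). The null-labelled counts behind these values are 6 for Fzd7 and 10 for Fzd6 over 3 libraries, so both genes were close to undetected there and abundant in every wild-type-labelled library.

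Fzd8 had 0 counts in each null-labelled library and 13.4, 12.7 and 12.04 CPM in the wild-type-labelled ones, which makes it at least 236-fold lower, with the null-labelled group set to 3 counts over its libraries. This bound, and every fold or ratio of counts below, divides the counts of each group by its scaled library totals, so it differs slightly from the quotient of the printed counts. Fzd3, a receptor known from axon guidance, also had 0 counts in the null-labelled libraries and 2.11, 1.71 and 1.68 CPM in the wild-type-labelled ones, at least 34.3-fold lower. Fzd1 had 3 counts over the null-labelled and 1023 over the wild-type-labelled libraries. This is a scaled ratio of 328, wild-type-labelled over null-labelled, with an exact binomial 95% counting interval of 112 to 1593. Fzd4, the receptor for norrin in blood vessels of the retina, had 1 count against 212 in wild-type-labelled libraries, a scaled ratio of 204 (interval 36.2 to 8093). These 4 genes were thus at the limit of detection in the null-labelled libraries, and the intervals cover counting error only.

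A pair of Frizzled genes stayed above that limit. Fzd2 stood at 6.51, 6.95 and 7.52 CPM in null-labelled libraries and 20.9, 23.03 and 21.99 CPM in wild-type-labelled ones, a log2 fold change of -1.65 ± 0.091 (SE). Fzd5 stood at 8.04, 7.48 and 7.14 CPM in null-labelled libraries and 37.7, 38.5 and 36.5 CPM in wild-type-labelled ones, a log2 fold change of -2.31 ± 0.083 (SE). Every null-labelled library lay below every wild-type-labelled library for both. Of the exonic bases of Fzd5, 17.8% are shared with the predicted gene Gm38058 and add no reads to either gene. Fzd9 (1 count in null-labelled against 27 in wild-type-labelled libraries) and Fzd10 (1 count in null-labelled against 0 in wild-type-labelled libraries) were too low to be tested.

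Levels of different genes were compared as RPKM, the scaled CPM per kilobase of exons. The summed RPKM of the 10 Frizzled genes was 3.10 ± 0.071 in null-labelled and 41.0 ± 1.26 in wild-type-labelled libraries (SD, n = 3 each). Fzd2 made up 58.7% to 64.7% of the null-labelled sum and Fzd5 32.6% to 38.4%. In the wild-type-labelled libraries Fzd6 led with 24.7% to 25.1% of the sum, followed by Fzd7 with 23.1% to 23.7%, Fzd2 with 14.0% to 15.1% and Fzd5 with 13.2% to 13.3%. No neighbours in the wild-type-labelled order overlapped in RPKM over their libraries. RPKM here divides by all exonic bases, including the 17.8% of Fzd5 that add no reads, so it understates Fzd5 and its shares. The wild-type-labelled order of Fzd2 and Fzd5, at 5.72 to 6.29 and 5.28 to 5.57 RPKM, therefore depends on the length used. In the null-labelled libraries Fzd2 and Fzd5 did not overlap with each other or with the genes below them, while each of the other 8 overlapped with its neighbour in the order.

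To set genes near 0 beside one that kept reads, upstream sequence is shown for the 4 tested Frizzled genes with an entry in the RefSeq table of the GRCm38.p6 build, which are 3 genes near 0 in the null-labelled libraries (Fzd7, Fzd1 and Fzd4) and 1 that kept reads there (Fzd5). Each run is the 120 bases before the RefSeq start, 5′ to 3′ on the strand of the gene, with CG dinucleotides in capitals.
Fzd7, chr1:59482027-59482146, plus strand: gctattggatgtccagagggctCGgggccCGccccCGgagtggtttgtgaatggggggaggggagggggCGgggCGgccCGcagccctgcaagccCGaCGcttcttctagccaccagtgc
Fzd1, chr5:4758217-4758336, minus strand: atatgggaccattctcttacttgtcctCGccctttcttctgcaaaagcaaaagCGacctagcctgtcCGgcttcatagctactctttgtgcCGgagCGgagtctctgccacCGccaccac
Fzd4, chr7:89404246-89404365, plus strand: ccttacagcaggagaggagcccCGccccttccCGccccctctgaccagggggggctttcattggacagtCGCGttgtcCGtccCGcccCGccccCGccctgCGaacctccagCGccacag
Fzd5, chr1:64737751-64737870, minus strand: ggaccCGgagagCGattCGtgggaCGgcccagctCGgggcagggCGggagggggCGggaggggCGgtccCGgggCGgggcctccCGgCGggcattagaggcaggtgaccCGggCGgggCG
All 4 stretches hold CG dinucleotides, with 8 in Fzd7, 6 in Fzd1, 10 in Fzd4 and 15 in Fzd5. Over 250 upstream bases the counts were 17, 12, 25 and 32 in the same order, against a median of 6 over the 32851 starts of the table, of which 33.5% hold at least 12. The RefSeq starts of Fzd7 and Fzd1 lie 277 and 181 bases before the first exons that the deposited counts used. Over all members in the table, the median was 14 for 12 starts of 9 genes lower by over 32-fold and 21.5 for 34 starts of the other members. These medians count starts and not genes, and Lef1 alone entered the first with starts of 11, 14, 6 and 5. The other members include genes without counts in any library (Dkk1, Wif1 and Sfrp5), so the medians do not set silent genes against expressed ones. This is a description of the letters, and methylation was not measured.

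The other Wnt receptors split. Ror2, the receptor tyrosine kinase that binds Wnt5a, had 0, 0.117 and 0.107 CPM in null-labelled libraries, against 31.9, 33.1 and 31.7 CPM in wild-type-labelled libraries, a log2 fold change of -8.67 ± 0.72 (SE). With 4 counts over the null-labelled and 1852 over the wild-type-labelled libraries, it was as close to undetected as the Frizzled genes above. Ryk, a further Wnt-binding receptor of the kinase type, stood at 166, 167 and 167 CPM in null-labelled and 220.3, 222 and 218 CPM in wild-type-labelled libraries, a log2 fold change of -0.40 ± 0.031 (SE). Ryk was lower by a small amount in every null-labelled library.

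The coreceptors of the beta-catenin branch were higher. Lrp5 stood at 115, 110 and 120 CPM in null-labelled and 65.0, 64.6 and 64.7 CPM in wild-type-labelled libraries, a log2 fold change of 0.83 ± 0.039 (SE). Lrp6 stood at 244, 246 and 243 CPM in null-labelled and 199, 201 and 187 CPM in wild-type-labelled libraries, a log2 fold change of 0.32 ± 0.030 (SE). The groups did not overlap in either gene, and the largest edgeR adjusted p of the 4 tested receptors of this role was 1.92e-32. In RPKM, Ryk ranked first and Lrp6 second in both groups, and Lrp5 took the third place from Ror2 in the null-labelled libraries. Ror1, the close relative of Ror2, was not tested, with 16 counts over the null-labelled and 4 over the wild-type-labelled libraries.

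**Figure D2:**
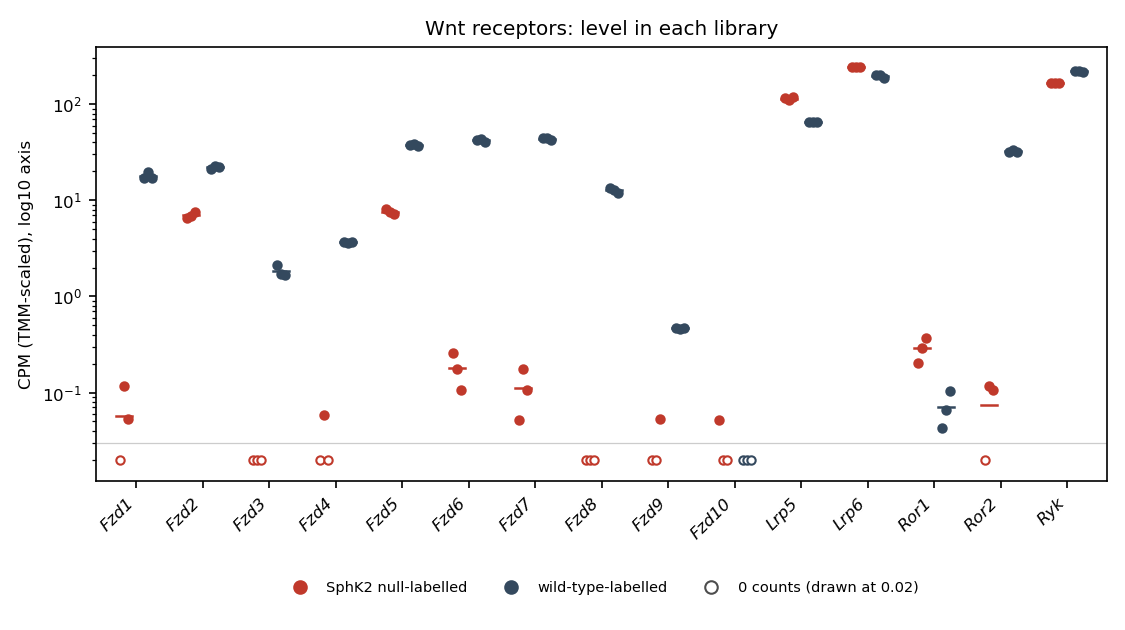
CPM of the Frizzled, coreceptor and kinase-type receptor genes in each library on a log10 axis, null-labelled libraries left of wild-type-labelled ones; short lines are group means and open circles mark 0 counts. Fzd1, Fzd3, Fzd4, Fzd6, Fzd7, Fzd8 and Ror2 lie below 0.3 CPM in every null-labelled library, while Lrp5, Lrp6 and Ryk stay above 60 CPM in all 6 libraries.

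Among the ligands, 4 of the 8 tested genes were higher in the null-labelled libraries, 3 were lower and 1 did not pass. Over all genes tested, 38.1% were higher and 41.1% lower. Wnt5a, a ligand of the branch that does not use beta-catenin, stood at 0.717, 0.467 and 0.640 CPM in null-labelled libraries, against 36.1, 41.3 and 35.1 CPM in wild-type-labelled libraries. Its log2 fold change was -5.91 ± 0.25 (SE), and every null-labelled library lay far below every wild-type-labelled one. Wnt5a (ENSMUSG00000021994) is a plus-strand gene at chr14:28504750-28527447 (mm10).

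Wnt7b, a ligand known from epithelia and the lung, went the other way. It stood at 114, 113 and 123 CPM in null-labelled libraries, against 20.5, 20.3 and 19.7 CPM in wild-type-labelled libraries, a log2 fold change of 2.53 ± 0.053 (SE). Wnt7b (ENSMUSG00000022382) is a minus-strand gene at chr15:85535439-85581821 (mm10). Wnt10b, known for holding back fat cell differentiation, stood at 60.6, 61.1 and 66.0 CPM in null-labelled and 46.4, 41.5 and 45.1 CPM in wild-type-labelled libraries (log2 fold change 0.49 ± 0.046 SE). Wnt6 stood at 8.10, 7.77 and 7.73 CPM in null-labelled and 5.51, 5.31 and 5.34 CPM in wild-type-labelled libraries (0.54 ± 0.12 SE). Both were higher by less than 2-fold, with no overlap between the groups.

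Wnt5b, the paralog of Wnt5a, stood at 12.2, 13.4 and 11.8 CPM in null-labelled and 15.6, 15.4 and 17.01 CPM in wild-type-labelled libraries, a log2 fold change of -0.36 ± 0.081 (SE). It thus differed little where Wnt5a was lower by 60.5-fold in scaled counts. Wnt10a had 3.76 ± 0.284 CPM in null-labelled and 4.40 ± 0.252 CPM in wild-type-labelled libraries (SD, n = 3 each) and an edgeR adjusted p = 0.13. The low ligands Wnt2b (1.04 ± 0.169 CPM in null-labelled, 0.532 ± 0.177 CPM in wild-type-labelled libraries) and Wnt11 (0.313 ± 0.240 CPM in null-labelled, 0.832 ± 0.140 CPM in wild-type-labelled libraries, SD, n = 3 each) both passed, Wnt2b as higher (edgeR adjusted p = 0.0084) and Wnt11 as lower (edgeR adjusted p = 0.000278). The call of Wnt2b was lost with DESeq2 (adjusted p = 0.067) and without null-labelled replicate 2 (edgeR adjusted p = 0.0579), and its adjusted p ran from 0.00423 to 0.067 over the alternatives. Wnt2, Wnt4, Wnt9a and Wnt16 had at most 37 counts over either group and were not tested.

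**Figure D3:**
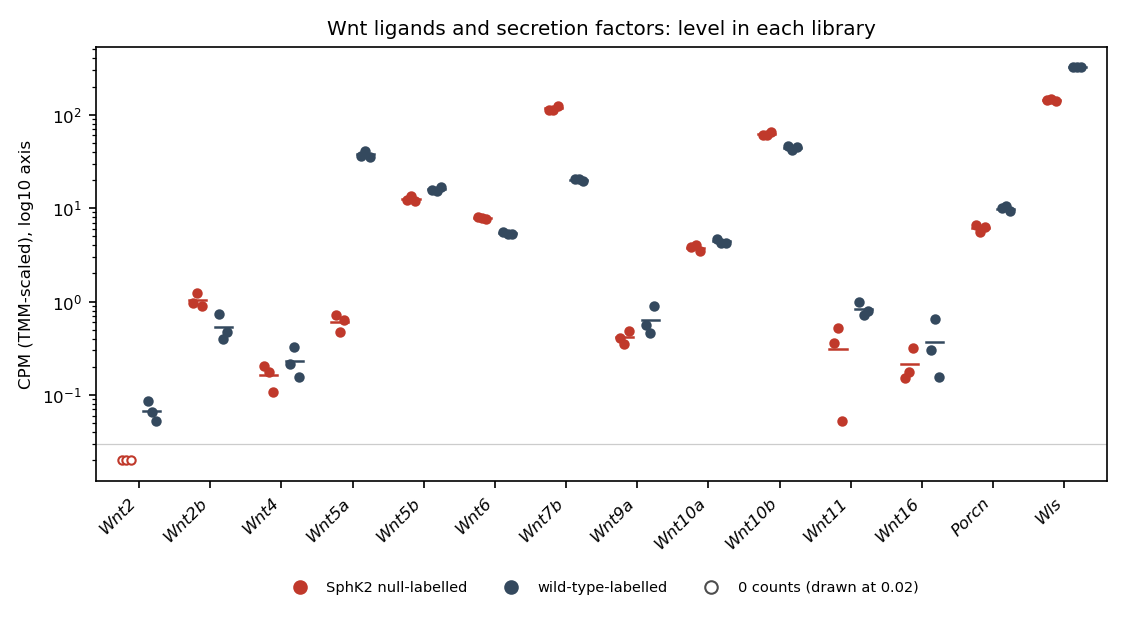
CPM of the Wnt ligands and of the secretion factors Porcn and Wls in each library on a log10 axis, null-labelled libraries left of wild-type-labelled ones; short lines are group means and open circles mark 0 counts. Wnt5a lies below 0.8 CPM in the 3 null-labelled libraries and above 35 CPM in the 3 wild-type-labelled ones, and Wnt7b is above 110 CPM in the null-labelled libraries.

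Summed over the 12 ligands, the RPKM was 63.7 ± 2.17 in null-labelled and 39.4 ± 0.954 in wild-type-labelled libraries (SD, n = 3 each). Wnt10b and Wnt7b together led the null-labelled sum, with 41.7% to 42.8% from Wnt10b and 40.9% to 42.2% from Wnt7b, and their RPKM ranges overlapped. In the wild-type-labelled libraries Wnt10b alone gave 46.5% to 49.5%. Wnt5b followed there with 14.6% to 16.2%, then Wnt5a with 11.4% to 13.8% and Wnt7b with 11.3% to 12.03%, of which the last 2 overlapped. Wnt5a gave 0.0952% to 0.148% of the null-labelled sum. The ligand pool of the null-labelled libraries was thus larger in RNA per length and held almost no Wnt5a, and these sums carry no test.

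**Figure D4:**
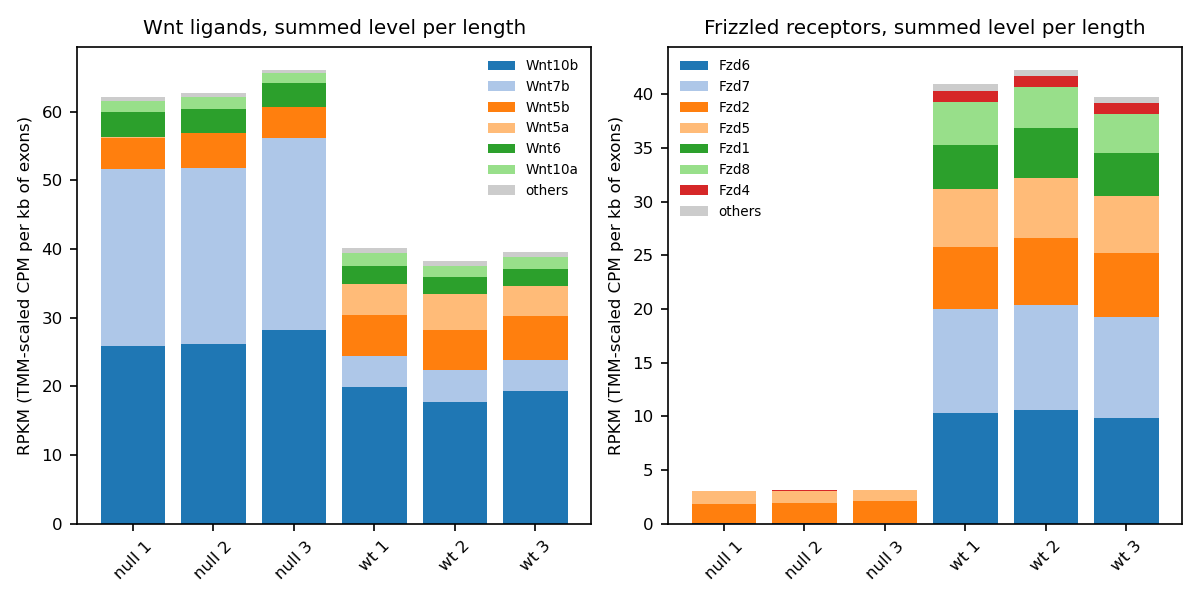
Summed level per length (RPKM) of the 12 Wnt ligands and of the 10 Frizzled receptors in each library, stacked by gene, null-labelled libraries left of wild-type-labelled ones. The ligand sum is 62.1 to 66.1 in null-labelled and 38.3 to 40.2 in wild-type-labelled libraries, and the Frizzled sum is 3.03 to 3.17 in null-labelled and 39.8 to 42.3 in wild-type-labelled libraries.

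Both genes that prepare Wnt proteins for export were lower. Wls, the carrier that takes Wnt to the cell surface, stood at 145, 148 and 141 CPM in null-labelled and 322, 326 and 320.0 CPM in wild-type-labelled libraries, a log2 fold change of -1.16 ± 0.031 (SE). Porcn, the enzyme that attaches the lipid, stood at 6.56, 5.61 and 6.29 CPM in null-labelled and 9.94, 10.4 and 9.27 CPM in wild-type-labelled libraries, a log2 fold change of -0.67 ± 0.11 (SE). Both remained well above the limit of detection in all 6 libraries, and the larger edgeR adjusted p of the pair was 4.89e-10.

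Secreted antagonists were near 0 in the null-labelled libraries. All 6 tested were lower, against 41.1% of all genes tested, with the largest edgeR adjusted p of the 6 at 7.88e-30. These 6 entered the test on their wild-type-labelled counts alone and could only be found lower. Their shared direction is therefore a description and no result against that share. Dkk2, which blocks Lrp5 and Lrp6, had 0, 0.117 and 0.0533 CPM in null-labelled libraries and 26.3, 27.7 and 24.8 CPM in wild-type-labelled ones. That is 3 counts in null-labelled against 1507 in wild-type-labelled libraries, a scaled ratio of 483 with an exact binomial counting interval of 165 to 2346. Dkk3, a member of the Dkk family, had 3 counts in null-labelled and 384 in wild-type-labelled libraries, a scaled ratio of 123 (interval 41.8 to 600).

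The secreted Frizzled-related proteins, which carry a Frizzled-like domain that binds Wnt outside the cell, were as low. Sfrp2 had 2 counts in null-labelled and 369 in wild-type-labelled libraries (scaled ratio 178, interval 48.8 to 1471), and Sfrp1 had 1 against 118 in wild-type-labelled libraries (scaled ratio 114, interval 19.98 to 4521). Sfrp4 had 4 counts in null-labelled and 131 in wild-type-labelled libraries, with a log2 fold change of -4.85 ± 0.74 (SE). Frzb, first known from cartilage, had 0 counts in the null-labelled libraries and 2.80, 2.03 and 2.20 CPM in the wild-type-labelled ones, at least 44.3-fold lower. Of the exonic bases of Sfrp2, 16.1% are shared with Gm26771 and add no reads.

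The other 4 antagonists were at or near 0. Dkk1, Wif1 and Sfrp5 had 0 counts in all 6 libraries, and Notum, an enzyme that removes the lipid from Wnt, had 0 counts in null-labelled and 10 in wild-type-labelled libraries. A count of 0 in a library allows a level of up to 0.127 to 0.192 CPM, taken as 3 counts of its total. Summed over the 10 antagonists, the RPKM was 0 to 0.164 in null-labelled and 13.9 to 14.96 in wild-type-labelled libraries.

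R-spondins are secreted proteins that strengthen Wnt signals by removing the ubiquitin ligases Znrf3 and Rnf43, which otherwise take Frizzled receptors off the membrane, and they do so through the receptors Lgr4 and Lgr5. Rspo2 had 0 counts in each null-labelled library and 4.65, 4.53 and 5.45 CPM in the wild-type-labelled ones, at least 90.1-fold lower. Rspo3 had 0 counts in each null-labelled library and 0.903, 0.787 and 1.05 CPM in the wild-type-labelled ones, at least 17.0-fold lower. Rspo1 ran the other way, with 22 counts in null-labelled and 2 in wild-type-labelled libraries, but was below the filter for testing. With no filter on low counts its edgeR adjusted p was 0.000159.

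On the receiving side of this branch, Lgr4 stood at 23.7, 24.5 and 25.7 CPM in null-labelled and 35.7, 36.4 and 38.4 CPM in wild-type-labelled libraries, a log2 fold change of -0.58 ± 0.058 (SE). Lgr5 had 3 counts in null-labelled and 4 in wild-type-labelled libraries. Znrf3 stood at 47.03, 52.7 and 50.5 CPM in null-labelled and 43.9, 42.4 and 44.0 CPM in wild-type-labelled libraries, a log2 fold change of 0.20 ± 0.048 (SE). Rnf43, its relative, stood at 1.33, 0.701 and 0.853 CPM in null-labelled libraries, against 0.0860, 0 and 0.105 CPM in wild-type-labelled libraries, a log2 fold change of 3.69 ± 0.75 (SE). Both ubiquitin ligases were higher, Znrf3 slightly and Rnf43 from near 0 in the wild-type-labelled libraries. The largest edgeR adjusted p of the 5 tested genes of the branch was 2.51e-05.

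**Figure D5:**
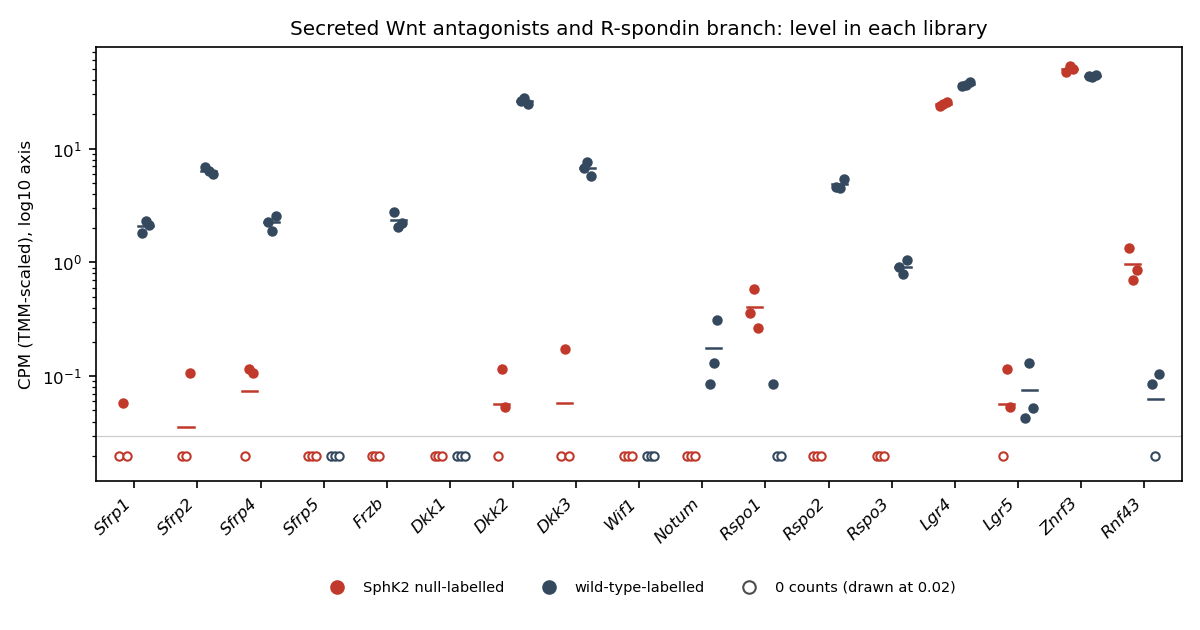
CPM of the secreted antagonists and the R-spondin branch in each library on a log10 axis, null-labelled libraries left of wild-type-labelled ones; short lines are group means and open circles mark 0 counts. Frzb, Notum, Rspo2 and Rspo3 have 0 counts in every null-labelled library, Dkk1, Wif1 and Sfrp5 have 0 counts in all 6, and Rnf43 and Rspo1 lie higher in the null-labelled libraries.

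Ctnnb1, which encodes beta-catenin, was the most abundant of the 55 genes in RPKM in both groups and differed little. It stood at 605, 606 and 620.1 CPM in null-labelled and 649.9, 658 and 675 CPM in wild-type-labelled libraries, a log2 fold change of -0.11 ± 0.028 (SE). The DNA-binding partners differed more. Lef1 had 0 counts in each null-labelled library and 2.84, 3.35 and 3.04 CPM in the wild-type-labelled ones, at least 56.1-fold lower. Tcf7l2 stood at 21.4, 20.03 and 19.6 CPM in null-labelled and 49.9, 54.1 and 48.2 CPM in wild-type-labelled libraries, a log2 fold change of -1.31 ± 0.058 (SE).

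Tcf7l1, a family member known mainly as a repressor, stood at 23.3, 23.9 and 24.9 CPM in null-labelled and 47.6, 46.0 and 48.8 CPM in wild-type-labelled libraries, a log2 fold change of -0.99 ± 0.056 (SE). Tcf7 was the only one of the 4 that was higher, at 30.6, 33.7 and 31.5 CPM in null-labelled and 25.4, 25.5 and 26.9 CPM in wild-type-labelled libraries, a log2 fold change of 0.30 ± 0.059 (SE). In RPKM the order in null-labelled libraries was Tcf7, Tcf7l1, Tcf7l2 and Lef1, and in wild-type-labelled libraries Tcf7l1, Tcf7, Tcf7l2 and Lef1, with no overlap between neighbours in either. The largest edgeR adjusted p among beta-catenin and the 4 factors was 4.42e-07. Of the exonic bases of Lef1, 13.7% are shared with Gm43352.

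The intracellular inhibitors, some of which are themselves induced by beta-catenin as feedback, went in different directions. Axin2, the scaffold used as a readout of beta-catenin activity in many tissues, stood at 5.79, 5.43 and 6.08 CPM in null-labelled libraries, against 0.989, 0.853 and 1.10 CPM in wild-type-labelled libraries. Its log2 fold change was 2.54 ± 0.22 (SE), and all null-labelled libraries lay above all wild-type-labelled ones. Axin1, its constitutive relative, stood at 143, 147 and 141 CPM in null-labelled and 181, 185 and 189 CPM in wild-type-labelled libraries (log2 fold change -0.36 ± 0.032 SE). Nkd2, which binds Dishevelled, had 0 counts in each null-labelled library and 3.92, 3.87 and 3.61 CPM in the wild-type-labelled ones, at least 70.2-fold lower, while Nkd1 had 26 counts in null-labelled and 28 in wild-type-labelled libraries and was not tested.

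The upstream sequence of Axin2, which was higher, is shown as for the Frizzled genes, with CG dinucleotides in capitals.
Axin2, chr11:108920229-108920348, plus strand: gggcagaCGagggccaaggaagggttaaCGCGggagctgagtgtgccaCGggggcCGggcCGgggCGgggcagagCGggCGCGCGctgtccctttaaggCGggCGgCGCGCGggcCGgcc
The TCF-type words CTTTGAA and CTTTGAT were searched on both strands in the 250 bases before each RefSeq start. They occur before 7.48% of all 32851 starts and before 3 of 46 starts (6.52%) of the 36 members in the table, namely at Wnt5b, Wnt11 and Dkk1. They did not occur in the 250 bases before the start of Axin2, which says only that these letters are not in that window. The stretches of the pair with counts are given with the word in capitals.
Wnt5b, chr6:119449421-119449487, minus strand: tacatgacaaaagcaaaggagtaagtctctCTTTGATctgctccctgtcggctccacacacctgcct
Wnt11, chr7:98835031-98835097, plus strand: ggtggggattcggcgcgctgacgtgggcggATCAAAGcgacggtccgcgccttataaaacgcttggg
The word begins 71 bases before the start in Wnt5b, at 1 of its 3 RefSeq starts, and 51 bases before 1 of the 2 starts of Wnt11, where it lies on the other strand as ATCAAAG. Wnt5b spans chr6:119432531-119544347, so that start lies far inside the gene. Counts per gene do not show which start was used. Both genes were lower in the null-labelled libraries, with log2 fold changes of -0.36 and -1.45.

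Of 98 other genes of the pathway, 77 were tested, of which 26 were higher and 42 lower, with a median log2 fold change of -0.22. The share called, 88.3%, is near the 79.2% of all genes tested (38.1% higher and 41.1% lower), and the counts of the lists below are given against that background as descriptions, with no test of a list. Among other ligands and R-spondin genes, 2 of 9 were tested. Rspo4 had 1 count in null-labelled and 291 in wild-type-labelled libraries (scaled ratio 280, interval 49.9 to 11095), and Lgr6 stood at 0.218 CPM in null-labelled and 6.22 CPM in wild-type-labelled libraries on average. Wnt3, Wnt3a, Wnt8a and Wnt9b had 0 counts in all 6 libraries, and are named after their values were seen. Of 10 tested extracellular modulators 2 were higher and 7 lower. Cthrc1, a secreted protein that favours Wnt5a binding to Ror2, had 0 counts in null-labelled libraries and 4.53 CPM on average in wild-type-labelled ones, at least 83.4-fold lower. Gpc4, a cell surface glypican, averaged 0.0899 CPM (5 counts) in null-labelled and 43.8 CPM in wild-type-labelled libraries (log2 fold change -8.82 ± 0.65 SE), and Reck, a coreceptor for Wnt7 ligands in brain vessels, averaged 0.0916 CPM (5 counts) in null-labelled and 4.98 CPM in wild-type-labelled libraries (-5.69 ± 0.66 SE).

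Of 14 tested genes of planar polarity, the branch that orients cells within a sheet, 9 were higher and 4 lower, against 38.1% higher and 41.1% lower over all genes tested. Celsr3, an adhesion receptor of this branch, averaged 6.03 CPM in null-labelled and 0.393 CPM in wild-type-labelled libraries (log2 fold change 3.96 ± 0.33 SE). Its relative Celsr1 averaged 4.69 CPM in null-labelled and 0.895 CPM in wild-type-labelled libraries (2.45 ± 0.24 SE). Vangl2, a membrane protein of the same complex, was lower instead, at 0.158 CPM (9 counts) in null-labelled and 17.95 CPM in wild-type-labelled libraries (-6.73 ± 0.48 SE).

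In the destruction complex and the steps next to it, 14 of 22 tested genes were lower and 5 higher. The members lower by the most were Cxxc4, with 0 counts in null-labelled libraries (at least 70.6-fold lower), Dact2, with 4 counts in null-labelled libraries (log2 fold change -6.42 ± 0.73 SE) and Dact3, at 6.40 CPM in null-labelled and 52.4 CPM in wild-type-labelled libraries (-3.04 ± 0.086 SE). These 3 are inhibitors or modulators that act at Dishevelled. Of 15 nuclear partners of beta-catenin, 6 were higher and 7 lower. Tle4 (2.45 ± 0.10 SE) and its family member Tle6 (2.17 ± 0.078 SE) were higher, which does not hold for every gene of that family. Ctnnbip1, which blocks beta-catenin from TCF, was lower, at 10.3 CPM in null-labelled and 54.6 CPM in wild-type-labelled libraries (-2.41 ± 0.072 SE). Of the exonic bases of Ctnnbip1, 25.8% are shared with Gm13066 and add no reads.

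Other genes reported as beta-catenin targets also went both ways, with 4 of 14 tested higher and 8 lower. The genes named here by size of change were all lower, so they do not show the 4 that were higher. Twist1, a mesenchymal transcription factor, averaged 59.5 CPM in null-labelled and 159 CPM in wild-type-labelled libraries (log2 fold change -1.42 ± 0.038 SE). Ccn4, a matricellular protein also called Wisp1, averaged 18.3 CPM in null-labelled and 46.3 CPM in wild-type-labelled libraries (-1.34 ± 0.061 SE). Bambi, a pseudoreceptor, was close to 0 in null-labelled libraries, with 1 count against 622 in wild-type-labelled libraries. The largest edgeR adjusted p of the named genes of these other lists was 4.07e-32.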

How the data were processed

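Each library had 1 deposited file of read counts per Ensembl gene. FeatureCounts 1.6.2 was run over exons of Ensembl release 83 (GRCm38, mm10 names) with no strand, multimapping or overlap option, per the file headers. The submitters' processing notes name Trimmomatic 0.33, FastQC 0.11.2, Subread 1.6.2 and another featureCounts version, 1.2.6. Without strand, reads of overlapping genes cannot be told apart, and by default those over exons of more than 1 gene are left out.

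Symbols were matched by identifier (46488 of 46983 genes, 98.9%). Genes were kept with filterByExpr (15199), normalised by TMM and tested in edgeR 4.0.16 under R 4.3.3 (quasi-likelihood F-test, robust, no covariate), with Benjamini-Hochberg adjustment over all genes tested. The standard error is that of the fitted coefficient, from the negative binomial weights and the quasi-likelihood dispersion where it exceeds 1, so it is not below the counting error. A group at 0 was set to 3 counts over its libraries for a bound, and with 1 to 3 counts a ratio with an exact binomial 95% interval is given, both scaled by the effective library totals. Within a group, libraries correlated at 0.995 to 0.996 across genes, and their counts differed by more than sampling noise (chi-square 1.47 to 2.14 per degree of freedom), so none was treated as a duplicate. Counts were simulated for the 15199 genes of this comparison with 50 genes at each fold size. The share recovered was 62% for 1.2-fold, 76% for 1.5-fold, 92% for 2-fold and 96% for 4-fold changes, while 2 of 14999 unchanged genes were called. All genes were simulated with 1 common coefficient of variation of 2.24%. In the data 12040 genes were called, so a simulation with few changed genes does not measure false calls in this comparison.

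The members, the lists of other pathway genes and the marker lists were chosen with earlier results of these data known. Per-library values are given for members with a mean of at least 10 CPM in a group or among the 2 largest called changes of their role, and for some low members, chosen with their values known, to complete a role. Up to 3 called genes of the largest change were named per other list, if their average log2 CPM reached 1. Upstream sequences come from RefSeq (GRCm38.p6), where 36 of 55 members had an entry. Alternatives were DESeq2 1.42.0, size factors by median of ratios, limma-voom (limma 3.58.1), no filter on low counts, over 1 CPM in 3 libraries, a replicate block, an adjusted p under 0.01, and leaving out each library.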

Additional observations from a re-analysis of the deposited data

How the results depend on the processing

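Under all 13 alternatives the counts of called genes over the 55 members, the 98 other pathway genes and all genes stayed within 1.5 times those reported. Members called higher ranged from 8 to 12 and members called lower from 28 to 32. For the other pathway genes the ranges were 24 to 26 higher and 41 to 45 lower, and for all genes 11004 to 13314. Leaving out 1 library at a time gave 9 to 10 members higher and 30 lower. No fold change of a tested member or named pathway gene changed sign. Of 750 such values, 748 kept their side of the threshold, and the other 2 are those of Wnt2b given above. The 12 higher and 32 lower with no filter on low counts include Rspo1, Ror1, Fzd9 and Notum, which the filter otherwise removed. With over 1 CPM in 3 libraries, Wnt2b, Wnt11, Rspo3 and Rnf43 were not tested, so 1 gene of the R-spondin branch was called higher instead of 2.

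The replicate numbers were shared between the groups by label only. Deviations from the group means correlated at -0.0028 to 0.0181 between libraries of the same number, so the numbers were not taken as pairs. With a replicate block, 10 members were higher and 30 lower, as without it, and 12003 genes were called in all, against 12040.

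Depth limits the genes near 0, where 3 counts correspond to 0.127 to 0.192 CPM in a library, so their fold changes are bounds or carry wide errors, such as an SE of 0.72 on the log2 scale for Ror2 with 4 null-labelled counts. No member called lower by over 32-fold had more than 34 counts over the null-labelled libraries.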
